A study of Mus musculus with 39 samples.

Results

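Mest is an imprinted gene, read from the paternal copy, whose product is a membrane protein of the alpha/beta hydrolase family. In adipose tissue it is known as a marker of fat expansion, since its transcript goes up when fat cells fill with lipid and enlarge. This account sets the 10 arrays of subcutaneous adipose tissue with the highest Mest level against the 10 with the lowest, out of 39 arrays in the series, and describes which other genes went with Mest. The arrays were chosen by the measured Mest level alone, and the remaining 19 belong to neither side and were kept apart. The level of a gene is the log2 of its processed intensity minus the log2 of the 75th percentile of its array, so that 0 is the 75th percentile and a difference of 1 is a 2-fold difference. Mest itself chose the arrays, and all other genes were read on the same arrays, so differences between the sides are given as a description with no test.

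All mice were C57BL/6J, weaned at 3 to 4 weeks of age and then put on 1 of 5 diets. LFC is the low-fat control diet with 10% of calories from fat (10 arrays), and HFC is a high-fat, high-sucrose diet with 60% of calories from fat (11 arrays). HF5, HF20 and HF75 are that same high-fat diet given with 5, 20 or 75 µg of KAL-1, a botanical formulation (6 arrays each). LFC and HFC were sampled at Day 6, Day 10, Day 14 and Week 0, and all 5 diets at intervals of 3 weeks between Week 3 and Week 18. A Day 1 array exists for HFC only. Each diet has a single array per labelled time point. A paper on liver arrays of the same experiment counts weeks from Day 14, so that Day 14 and Week 0 are there the same time. Here they are kept as separate time points, as labelled. Whether RNA of several mice was pooled on an array is not given by the labels. The number n therefore counts arrays, and p-values here measure only the spread between arrays. Tissue was taken whole, so fewer cells of a type and less RNA per cell cannot be told apart.

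White adipose tissue stores triglyceride in mature adipocytes and can grow by enlarging these cells or by forming new cells from progenitors. Mature adipocytes take up glucose and fatty acids, build and break down triglyceride, and secrete hormones such as leptin and adiponectin. The stroma around them holds progenitors, vessels, macrophages and, where a piece of tissue includes a lymph node, many lymphocytes. Leptin is secreted in proportion to fat cell size and fat mass. Wnt10b and other Wnt ligands are known to hold progenitors back from becoming fat cells, while Sfrp5 is a secreted protein that binds Wnt ligands.

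The array carries 1 probe for Mest, which was well above background on all 39 arrays. The sequences that stand upstream of Mest and of Lep, the gene for leptin, are shown because these are the marker and the gene of the adipose expansion list whose difference between the sides was largest. They are the 250 bases before a start given by RefSeq (GRCm38.p6), all on the plus strand. RefSeq gives 3 starts for Mest, of which the most upstream (chr6:30733256-30733505) and the next (chr6:30737800-30738049) are shown, and the remaining one overlaps the latter. The window of Lep is chr6:29059971-29060220. Capitals mark a match to TTGCNNAA, searched on both strands, a form of the motif bound by C/EBP factors of the fat cell programme. The most upstream start of Mest has a match and the other 2 have none, while those hold 14 CpG each against 7.
Mest, upstream start: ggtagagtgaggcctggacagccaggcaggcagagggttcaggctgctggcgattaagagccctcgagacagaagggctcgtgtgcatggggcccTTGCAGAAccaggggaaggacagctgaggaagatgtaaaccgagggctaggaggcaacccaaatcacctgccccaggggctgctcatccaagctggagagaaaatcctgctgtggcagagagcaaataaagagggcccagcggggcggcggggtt
Mest, next start: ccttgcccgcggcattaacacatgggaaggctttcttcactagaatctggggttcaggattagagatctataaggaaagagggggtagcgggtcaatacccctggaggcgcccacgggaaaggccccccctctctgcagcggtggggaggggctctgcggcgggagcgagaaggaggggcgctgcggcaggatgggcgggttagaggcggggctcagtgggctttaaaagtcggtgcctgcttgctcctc
Lep: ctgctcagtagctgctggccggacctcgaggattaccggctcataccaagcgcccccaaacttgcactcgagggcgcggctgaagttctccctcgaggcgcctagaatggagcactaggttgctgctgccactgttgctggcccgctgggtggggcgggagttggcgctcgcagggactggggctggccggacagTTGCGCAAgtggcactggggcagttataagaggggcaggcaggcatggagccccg
Of 32851 promoters of this length, 9.56% held the motif. It stood in 3 of the 12 promoters matched to the adipose expansion list and in 4 of the 16 matched to the mature adipocyte list, against 1 of 10 for the lymphocyte list, 1 of 14 for lipolysis, 2 of 35 for imprinted genes and 1 of 8 for the genes with the highest rho. A match is a run of letters and no measurement of binding.

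Mest also carries a microRNA, miR-335, within an intron. Its mature sequences are shown to place the marker in its locus, with the seed (bases 2 to 8) in capitals. The miR-335-5p strand is at chr6:30741314-30741336 and miR-335-3p at chr6:30741354-30741375, both on the plus strand (RefSeq, GRCm38.p6), and their levels are not analysed here.
mmu-miR-335-5p: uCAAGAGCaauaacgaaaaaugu
mmu-miR-335-3p: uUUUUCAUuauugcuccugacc
The seeds of the 5p and 3p strands differ.

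The high side was mostly HFC and, by the labels, held no array of the 2 higher KAL-1 doses, though 1 HF20 array would be on it if a pair of doubted Week 12 labels (HF5 and HF20) were exchanged. It consisted of HFC Week 3 (Mest level 4.62), HFC Week 6 (3.82), HFC Week 9 (3.54), HFC Day 14 (3.53), HF5 Week 12 (3.18), HFC Week 0 (3.16), LFC Day 6 (3.02), LFC Day 14 (2.52), HF5 Week 6 (2.33) and HFC Week 12 (2.30). Thus 6 of 11 HFC arrays, 2 of 10 LFC arrays and 2 of 6 HF5 arrays were on it. The low side consisted of LFC Week 12 (0.46), HF20 Week 12 (0.41), HFC Week 15 (0.38), HF5 Week 15 (0.34), HF20 Week 6 (0.19), LFC Week 18 (0.16), HF5 Week 18 (0.01), LFC Week 3 (−0.03), HF20 Week 15 (−0.32) and HF75 Week 3 (−0.69). It held 3 of 10 LFC, 3 of 6 HF20, 2 of 6 HF5, 1 of 6 HF75 and 1 of 11 HFC arrays. The mean Mest level was 3.20 ± 0.72 (SD, n = 10) on the high side and 0.09 ± 0.37 (SD, n = 10) on the low side, a difference of 3.11. At the upper threshold the last array inside was HFC Week 12 (2.30) and the first outside HFC Day 6 (2.20), and at the lower threshold LFC Week 12 (0.46) was inside and LFC Week 15 (0.70) outside, so the upper boundary falls within a run of close values.

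**Figure D1:**
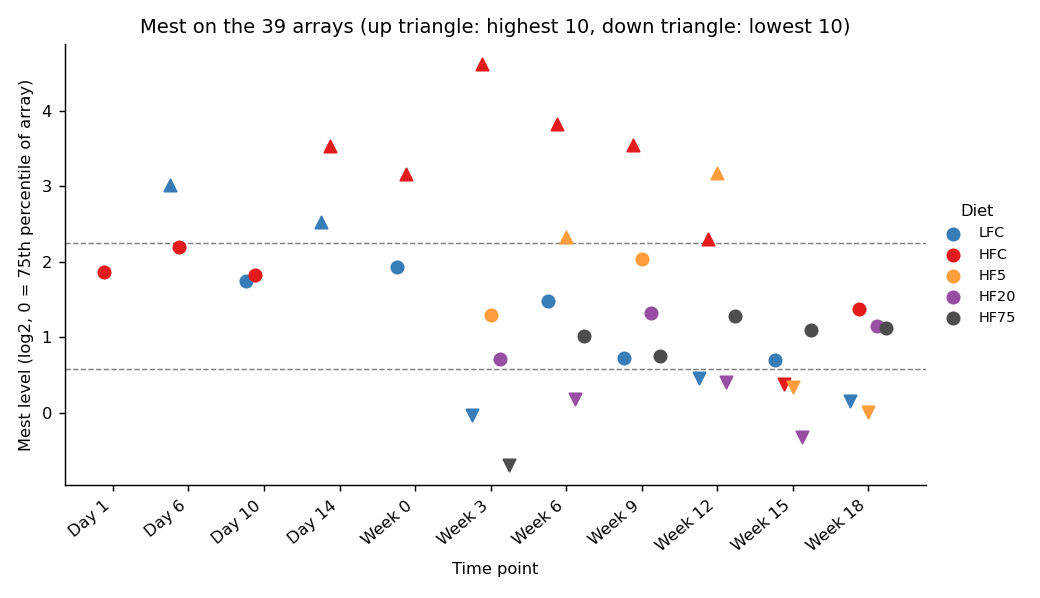
Mest level on each of the 39 arrays (y axis, log2 relative to the 75th percentile of the array) by time point (x axis), with colour for the diet, upward triangles for the highest 10, downward triangles for the lowest 10 and dashed lines at the 2 thresholds. The HFC arrays of Week 3, Week 6 and Week 9 lie at 4.62, 3.82 and 3.54, and all arrays of Week 15 and Week 18 lie below the upper threshold.

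Time points were shared unequally between the sides. The high side had 4 arrays of Day 1 to Week 0 and 6 of Week 3 to Week 18, while the low side had 0 and 10. None of the 10 arrays of Week 15 and Week 18 was on the high side, and 5 were on the low side. By diet, Mest averaged 2.60 ± 1.24 (SD, n = 11) with HFC, 1.53 ± 1.22 (n = 6) with HF5, 1.27 ± 1.03 (n = 10) with LFC, 0.76 ± 0.73 (n = 6) with HF75 and 0.58 ± 0.62 (n = 6) with HF20. With the doubted HF5 and HF20 labels of Week 12 exchanged, HF5 averaged 1.07 ± 0.97 and HF20 1.04 ± 1.21, so both then lay between LFC and HF75 and the order of these diets turned. The spreads of neighbouring diets in either order overlap, and diet, time point and age differ together between the sides.

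The high arrays were also brighter. The 75th percentile had a median intensity of 881 (608 to 1243) on the high side and 572 (108 to 982) on the low side, and over 39 arrays it had a Spearman rho of 0.45 with Mest. The share of spots well above background averaged 67.6% and 64.5%. The part of brightness in the differences below was not tested. In the deposited table of log2 ratios, 22 of the 24 columns that could be set against more than 1 array of their time point correlated best with the array of their own label, while the columns labelled HF5 and HF20 of Week 12 each correlated best with the array labelled as the other (r = 0.99 and 1.00, against 0.66 for both with their own). One of these arrays is on the high and the other on the low side, so which diet they represent is uncertain, and results are given below without them where they matter. The HF20 array of Week 15, on the low side, had 4936 spots with an outlier flag, and those spots were left out.

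Of the 29411 genes on the array, 21227 were well above background on at least 10 arrays, and these passed the filter. Among the 21226 other than Mest, 462 (2.18%) had a mean at least 1 higher on the high side and 1326 (6.25%) a mean at least 1 lower. Only LOC100044874 (0.00471%) had groups that did not overlap in the higher direction, and 0 genes did in the lower direction. The median difference over all genes was −0.11, and with normexp background correction it was −0.37, so a difference is read against that shift. Of the 1326 lower genes, 1129 were not well above background on some array. Over the 12907 genes well above background on every array, 205 were at least 1 higher and 197 at least 1 lower, so the excess of lower genes lay among dim genes.

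The adipose expansion list, the genes known to go with fat cell growth, was higher as a group on the high side, with leptin in the lead. Of its 10 members, Mest not counted, 9 passed the filter. Of these 5 were at least 1 higher (against 2.18% of all genes), 0 at least 1 lower and only 6 above 0. The median difference was 1.07 against −0.11 for all genes. With normexp correction the median was 0.45, with 4 at least 1 higher and 1 at least 1 lower. The mean level of the list ran from 0.41 to 2.26 (median 1.29) on the high side and from −0.05 to 1.61 (median 0.37) on the low side, and these ranges overlap. Lep, the satiety hormone of fat cells, had a lowest level of −1.87, a median of 1.01 and a highest of 3.10 on the high side, against −4.35, −2.50 and 1.77 on the low side. Its means differed by 2.96, and 3 of the 10 high arrays lay above every low array. Npr3, the receptor that clears natriuretic peptides, ran from 1.28 through 2.42 to 4.12 on the high side and from −0.47 through 0.75 to 3.28 on the low side, a difference of 1.67. Ehd2, a protein of the necks of caveolae, ran from 0.77 through 1.91 to 3.03 against −1.01 through 0.69 to 1.97, a difference of 1.17. Both genes overlapped between the sides, with 4 high arrays of Npr3 and 5 of Ehd2 above every low array.

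The other members with a secreted product differed less. Bmp3, a secreted protein of the BMP family, ran from −3.73 through −2.14 to 0.04 on the high side and from −4.28 through −3.18 to −1.84 on the low side, a difference of 1.09 that was −0.25 with normexp correction. Sfrp5, the Wnt inhibitor, ran from −4.53 through −3.39 to −1.80 against −4.74 through −3.77 to −2.36, a difference of 0.58. Cav1, the scaffold protein of caveolae, had a spot saturated on 10 high and 2 low arrays, so its level on the high side is only a lower bound and no difference is given. For Bmp3 and Sfrp5 the ranges of the sides overlapped.

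**Figure D2:**
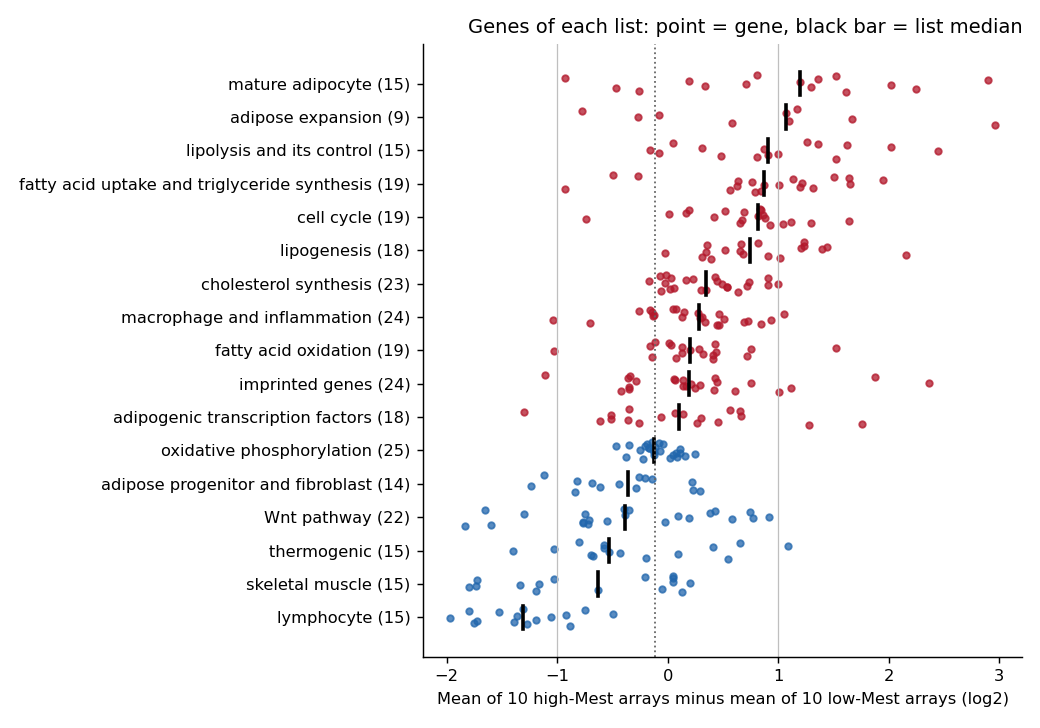
Difference between the means of the 10 high-Mest and the 10 low-Mest arrays (x axis, log2) for each gene of each list (points, with the number of genes in brackets), the list medians (black bars) and the median of all genes (dotted line, −0.11). The mature adipocyte list has the highest median, 1.20, and the lymphocyte list the lowest, −1.31.

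Genes of mature fat cells had 8 of 15 members at least 1 higher (against 2.18% of all genes) and 0 at least 1 lower. In all 12 of 15 were above 0, and the median difference was 1.20. This was the largest median of the lists as measured here, but not under every alternative. Without the 8 arrays of highest lymphocyte signal it was 0.96, below cell cycle (1.11), liver (1.08) and adipose expansion (0.98). Without HF20 Week 15 it was 0.97, below liver (1.07) and adipose expansion (1.05), and with normexp correction 1.32, below fatty acid uptake and triglyceride synthesis (1.36). Their mean level ran from 2.43 to 4.97 on the high side (median 3.60) and from 1.14 to 4.74 on the low side (median 2.36). The low array at the top of that range was LFC Week 12. While 5 of 10 low arrays lay below the lowest high array, only 1 high array lay above the highest low array, so the sides overlap. Acvr1c, a receptor of the activin family found in fat cells, had the largest difference of the list, 2.90, with −4.01, −1.24 and 1.64 as lowest, median and highest level on the high side and −7.12, −3.92 and 1.25 on the low side, where it was well above background on 6 of 10 arrays. Retn, the gene for the hormone resistin, differed by 2.25. Plin1, the coat protein of the lipid droplet, ran from 1.86 through 4.26 to 6.25 against −0.01 through 1.48 to 5.99, a difference of 2.02, with saturated spots on 2 high and 1 low arrays. A saturated spot gives only a lower bound of its level, here and for the genes below. Adipoq, the gene for adiponectin, ran from 3.89 through 5.56 to 6.74 against 1.12 through 3.63 to 6.03, a difference of 1.61, with the spot saturated on 4 high and 1 low arrays. Adipoq thus lay above the 75th percentile of its array on all 20 arrays, as subcutaneous adipose tissue by label should.

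The genes that build and handle triglyceride also had medians above that of all genes. For the counts given here, 2.18% of all genes were at least 1 higher and 6.25% at least 1 lower. In the list of fatty acid uptake and triglyceride synthesis, 9 of 19 members were at least 1 higher and 0 at least 1 lower (median 0.87). Dgat2, which makes the last step of triglyceride synthesis, ran from 2.43 through 5.77 to 6.43 on the high side and from 1.05 through 2.70 to 6.02 on the low side, a difference of 1.95, with saturated spots on 3 high and 1 low arrays. Agpat2, an earlier enzyme of the same path, differed by 1.65, and Aqp7, the channel through which glycerol leaves the cell, by 1.5. Pck1, which supplies glycerol for triglyceride in fat cells, differed by 1.64, with saturated spots on 4 high and 1 low arrays. Lipogenesis, the making of fatty acids from sugar, had 7 of 18 members at least 1 higher, 0 at least 1 lower and a median difference of 0.75. Scd1, the stearoyl-CoA desaturase, ran from 3.43 through 5.90 to 6.48 against 1.14 through 2.60 to 6.44, a difference of 2.16, with saturated spots on 3 high and 1 low arrays. Pnpla3 differed by 1.44 and Mlxipl, the carbohydrate-responsive factor ChREBP, by 1.39. Fasn, the fatty acid synthase, differed by 0.90, with saturated spots on 5 high and 1 low arrays. For lipogenesis the count was 3 without the 8 arrays with the highest lymphocyte list, of which 2 are on the low side, and 14 with normexp correction.

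Lipolysis genes, which release fatty acids from stored fat, went the same way as those of synthesis. Of 15 measured members 6 were at least 1 higher (against 2.18% of all genes) and 0 at least 1 lower (against 6.25%). Their median was 0.91. Adrb3, the beta-3 adrenergic receptor of fat cells, ran from 1.15 through 3.99 to 6.12 on the high side and from −1.79 through 0.52 to 6.00 on the low side, a difference of 2.45, with the spot saturated on 1 low array. Lipe, hormone-sensitive lipase, differed by 1.53 and Adora1, the adenosine receptor that restrains lipolysis, by 1.62. Fatty acid oxidation had a median of 0.20 (1 of 19 at least 1 higher, 1 at least 1 lower) and oxidative phosphorylation one of −0.12 (0 of 25 in either direction), and both lists had medians below those of the lists of fat storage. With normexp correction these medians were 0.62 and 0.51. That of fatty acid oxidation was 0.05 without HF20 Week 15 and −0.07 without the 8 arrays of highest lymphocyte signal.

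Of 18 adipogenic transcription factors, 2 were at least 1 higher on the high side and 1 at least 1 lower. For all genes these shares were 2.18% and 6.25%. The list median was 0.10, with 10 of 18 above 0. Cebpa ran from −0.09 through 1.69 to 4.27 on the high side and from −1.67 through −0.32 to 3.63 on the low side, a difference of 1.76. Pparg, the master regulator of fat cell formation, ran from 3.77 through 4.71 to 5.21 against 1.28 through 3.24 to 5.38, a difference of 1.28. Its SD was 0.43 on the high side and 1.37 on the low side, so the high arrays were alike and the low arrays spread. Gata3, which is known to hold preadipocytes back, differed by −1.30. Zfp423, a factor of preadipocytes too, differed by 0.67 in the other direction.

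Other imprinted genes were mixed. Of 24 measured members, 4 were at least 1 higher (against 2.18% of all genes) and 1 at least 1 lower, with a median of 0.19 that was −0.21 with normexp correction, and the mean level of the list had a rho of 0.44 with Mest over 39 arrays. Nnat, a paternally expressed gene of membrane proteolipid type, ran from −2.36 through 1.22 to 3.56 on the high side and from −3.08 through −1.67 to 1.55 on the low side, a difference of 2.37. Klf14, a transcription factor that lies on the same chromosome as Mest and is read from the maternal copy, ran from −6.14 through −4.28 to −2.18 against −7.92 through −6.07 to −4.53, a difference of 1.88. It was well above background on 9 high but only 3 low arrays, and with normexp correction its difference was −0.76. Plagl1, a zinc finger factor, differed by 1.11. Peg3, another paternally expressed zinc finger gene, ran from −3.69 through −2.42 to −0.83 against −4.11 through −3.03 to −2.62, a difference of 1.01 that was −0.25 with normexp correction. The growth factor gene Igf2 and the preadipocyte gene Dlk1, both paternally expressed, differed by −0.42 and 0.42, and Dio3, which inactivates thyroid hormone, by −1.11.

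**Figure D3:**
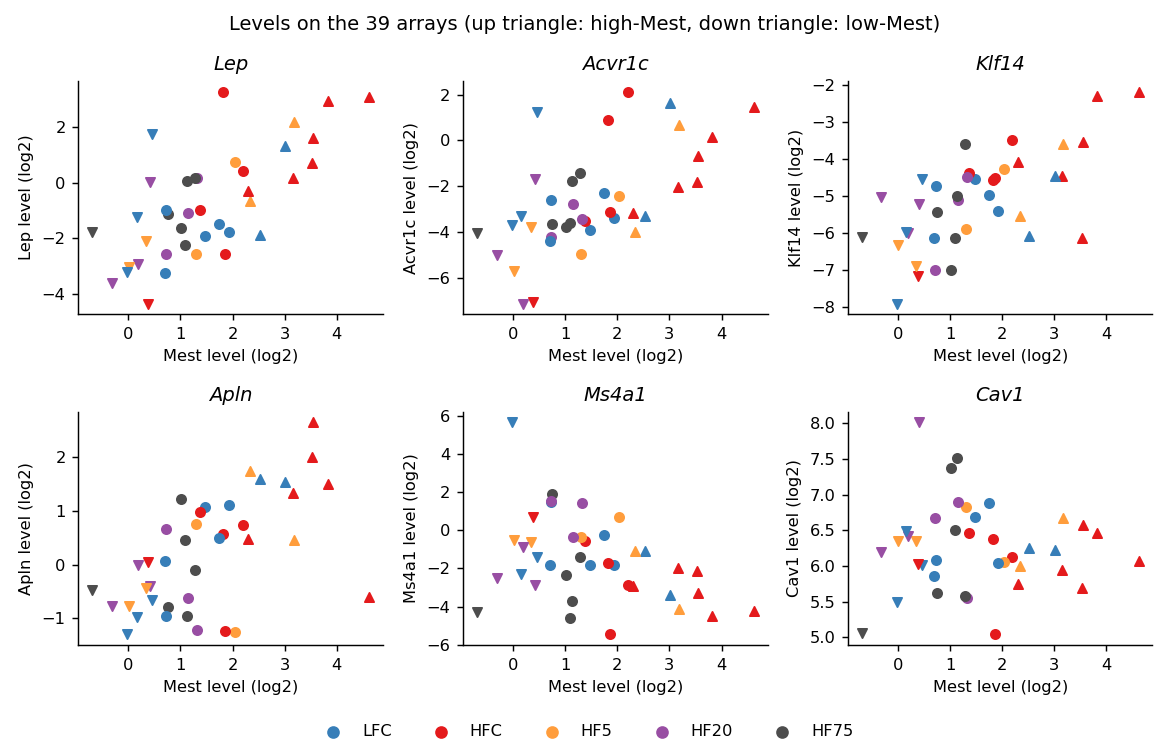
Level of 6 genes (y axes, log2) against the level of Mest (x axes, log2) on the 39 arrays, with colour for the diet and triangles for the high (up) and low (down) sides. Lep (difference 2.96), Acvr1c (2.90) and Klf14 (1.88, but −0.76 with normexp correction) lie higher where Mest is high, Apln lies above all low arrays on 9 of 10 high arrays, Ms4a1 has a single low-side array at 5.64, and Cav1, saturated on all 10 high arrays, shows no usable difference.

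Lymphocyte genes were lower on the high side. All 15 of the list's members had lower means, 11 of 15 by at least 1 (against 6.25% of all genes), with a median of −1.31. The list's mean level ran from −4.91 to −2.83 on the high side (median −3.67) and from −4.82 to 1.93 on the low side (median −2.67). Ms4a1, which encodes the B cell antigen CD20, ran from −4.49 through −3.10 to −1.07 on the high side and from −4.28 through −1.13 to 5.64 on the low side, a difference of −1.97. Cd3g, part of the T cell receptor complex, ran from −6.37 through −4.31 to −2.04 against −4.68 through −2.42 to 2.63, a difference of −1.75. Cr2, a B cell complement receptor, and Cd79a, part of the B cell receptor, were dim, with Cr2 well above background on 4 high and 4 low arrays and Cd79a on 2 high and 5 low arrays, so no size is given for them. LFC Week 3 held by far the most lymphocyte signal, 1.93 against a next low-side value of −1.53. Without the 8 arrays with the highest lymphocyte list, of which LFC Week 3 and HFC Week 15 are on the low side, 2 of 15 were at least 1 lower and the median was −0.73.

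Immunoglobulin genes, made by B cells and plasma cells, differed more than the lymphocyte markers. They were picked out after their values were seen. Of 44 measured genes described as immunoglobulin, 43 were at least 1 lower (against 6.25% of all genes). Their differences ran from −3.76 to −0.51 with a median of −2.75. Their mean level ran from −6.58 to −3.42 on the high side (median −5.26), from −6.82 to −1.27 on the 19 arrays between (median −3.48) and from −5.11 to −0.69 on the low side (median −2.40). Genes of this family share sequence, so their probes are not independent measurements. LOC100047628, a predicted gene described as similar to a chain L of an antigen mimicry structure, differed by −3.08 (well above background on 7 high and 9 low arrays), EG434025, an antibody light chain variable region, by −2.97 (5 and 9) and ENSMUST00000103527, a heavy chain segment, by −2.62 (9 and 9). The first and second of these are not described as immunoglobulin and so are not among the 44.

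The lists of the Wnt pathway, progenitors and muscle had medians below that of all genes. In the Wnt pathway list 4 of 22 members were at least 1 lower (against 6.25% of all genes) and 0 at least 1 higher (median −0.39, with 8 of 22 above 0), namely Wnt10b (−1.83), the Wnt target factor Lef1 (−1.65), Wnt10a (−1.60) and the secreted antagonist homologue Dkk3 (−1.30). Wnt10b was well above background on only 3 high and 6 low arrays, and without the 8 arrays of highest lymphocyte signal the count of the list was 2. Of the progenitor and fibroblast list, 2 of 14 were at least 1 lower (against the same 6.25%, median −0.36), namely Pi16 (−1.23), a marker of early progenitors, and the mesenchymal factor Prrx1 (−1.12). Mmp3, a matrix protease of the extracellular matrix list, differed by −2.36. That list had 2 of 25 at least 1 higher (against 2.18% of all genes), 1 at least 1 lower and a median of −0.11. With normexp correction the median was 0.06.

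Skeletal muscle genes, a sign of muscle tissue in the piece sampled, set single arrays apart on both sides. Their mean level ran from −3.49 to 5.67 on the high side, where HF5 Week 12 (5.67) and LFC Day 6 (4.37) stood above the other 8, and from −2.46 to 7.47 on the low side, where HF75 Week 3 (7.47) did. Of 15 members 7 were at least 1 lower (against 6.25% of all genes) and the median was −0.63. Without HF5 and HF20 of Week 12 the count was 9 and the median −1.27. Myh4 and Tnnt3, fast muscle genes, differed by −1.80 and −1.74 with SDs of 4.82 and 3.42 for Myh4 and 4.53 and 3.28 for Tnnt3 on the high and low sides. These differences lie well inside the spread.

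Some further lists had smaller medians or depended on the arrays compared. Their counts stand beside 2.18% of all genes at least 1 higher and 6.25% at least 1 lower. Macrophage and inflammation genes had a median of 0.28 with 1 of 24 at least 1 higher and 1 at least 1 lower. Over Week 3 to Week 18 alone 7 were at least 1 higher. With normexp correction 0 were at least 1 higher and 3 at least 1 lower, with a median of 0.06. Without HF20 Week 15 the median was 0.15. Cd68, a macrophage lysosomal marker, ran from −1.05 through 0.52 to 2.92 on the high side and from −2.97 through 0.21 to 2.59 on the low side, a difference of 0.46. Itgax, the CD11c gene of adipose macrophages, differed by 0.85. The endothelium list had a median of 0.47 with 0 of 11 past 1, cholesterol synthesis 0.35 with 0 of 23 and the TGF-beta and BMP list 0.21 (−0.21 with normexp correction) with 2 of 23 higher and 1 lower. Immediate early genes, which respond to handling, had a median of 0.31 with 0 of 15 past 1 over all 20 arrays, and more once time points were taken into account, as given below. The liver list was higher, with a median of 0.81, 5 of 5 above 0 and 2 of 5 at least 1 higher, 1 of them Cyp2e1 (2.0), an oxidising enzyme also made in fat. Its median was 1.08 without the 8 arrays of highest lymphocyte signal and 1.16 with quantile normalization, but 0.00 over Week 3 to Week 18 alone and −0.21 with normexp correction. On the high side the mean level of the list was 4.44 on HFC Day 14 and 0.89 on the next array, HFC Week 3. The middle value of this mean level was −2.93 on the high and −3.19 on the low side.

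Thermogenic genes split by array rather than by side. Ucp1, the uncoupling protein of brown and beige fat cells, ran from −3.81 through −1.12 to 6.06 on the high side and from −3.36 through −2.57 to 6.51 on the low side, a difference of 0.55 with SDs of 3.23 and 3.21. Elovl3, a cold-responsive fatty acid elongase, was well above background on only 2 high and 4 low arrays, so no size is given for it. The list median was −0.53, and it was −0.08 with normexp correction and −0.23 with quantile normalization. Of 15 members 1 was at least 1 higher and 2 at least 1 lower, against 2.18% and 6.25% of all genes.

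The difference of cell cycle genes depended on which time points were compared. Over all 20 arrays 4 of 19 were at least 1 higher (against 2.18% of all genes, median 0.81), with Cdc2a, the mitotic kinase CDK1, at 1.64 and Ccna2, cyclin A2, at 1.29. With the 6 high arrays of Week 3 to Week 18 alone, 0 were at least 1 higher, 1 was at least 1 lower and the median was 0.16. With the mean of each time point removed, the difference of Ccna2 was −0.05. With normexp correction the list's count was 0 (median −0.13) and the difference of Cdc2a was −0.13, and without the 8 arrays of highest lymphocyte signal it was 12.

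Since time points were shared unequally, the lists were also taken with the mean of each time point removed from every gene. The median difference was then 0.85 for immediate early genes, the most of any list, against −0.08 for all genes. Mature adipocyte had 0.59, lipolysis 0.58, adipose expansion 0.56 and fatty acid uptake and triglyceride synthesis 0.45. Endothelium had 0.44 and liver 0.42. Lipogenesis, with 0.18, lay below these and below mammary epithelium (0.25), macrophage (0.24), circadian clock (0.22) and TGF-beta and BMP genes (0.21). The median was −1.09 for lymphocyte, −0.51 for muscle, −0.66 for thermogenic, 0.05 for imprinted, −0.09 for Wnt pathway and 0.02 for cell cycle genes. For fatty acid oxidation it was −0.16, so its sign turned. The fat cell lists kept their direction, with smaller values. The handling genes of the immediate early list moved with them, with a median of 0.82 and 3 of 15 at least 1 higher over Week 3 to Week 18 alone, and their part in the fat cell lists was not tested.

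Weeks 3, 6 and 12 had arrays on both sides, so the sides can be set against each other within a week there, with 1 or 2 arrays a side and no test. In Week 3 (HFC against LFC and HF75), 17 of 18 lipogenesis genes were at least 1 higher with high Mest, with a list median of 2.55. In Week 6 (HFC and HF5 against HF20), 6 of 18 were, with a median of 0.82. In Week 12 (HF5 and HFC against LFC and HF20) 16 of 18 were at least 1 lower, with a median of −2.04. Of all genes 15.7%, 8.31% and 13.8% were at least 1 higher in the 3 weeks and 23.2%, 12.7% and 10.7% at least 1 lower. The mature adipocyte list went the same way with medians of 1.83, 1.72 and −0.93, lipolysis with 3.41, 1.13 and −0.81, and fatty acid uptake and triglyceride synthesis with 1.82, 1.54 and −1.01. Week 12 thus ran opposite to Week 3 and Week 6 for these lists. Adipose expansion had medians of 2.38, 0.70 and −0.0022 and adipogenic transcription factors 1.24, 0.18 and 0.34, so these did not run opposite.

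The same 3 weeks also differed in genes of other lists, among them markers of other tissues. The lymphocyte median was −3.30 in Week 3, −2.03 in Week 6 and −0.06 in Week 12, and the muscle median was −7.09, −0.77 and 2.51. Fatty acid oxidation had 0.70, 0.75 and −1.93. Ucp1 differed by 5.29, −0.55 and −5.78. The immediate early median was 2.28 in Week 3, −0.25 in Week 6 and 2.35 in Week 12, where the low arrays with a low list mean were HF75 Week 3 (0.19) and LFC Week 12 (−0.19). The part of these genes in the differences of the fat cell lists was not tested.

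**Figure D4:**
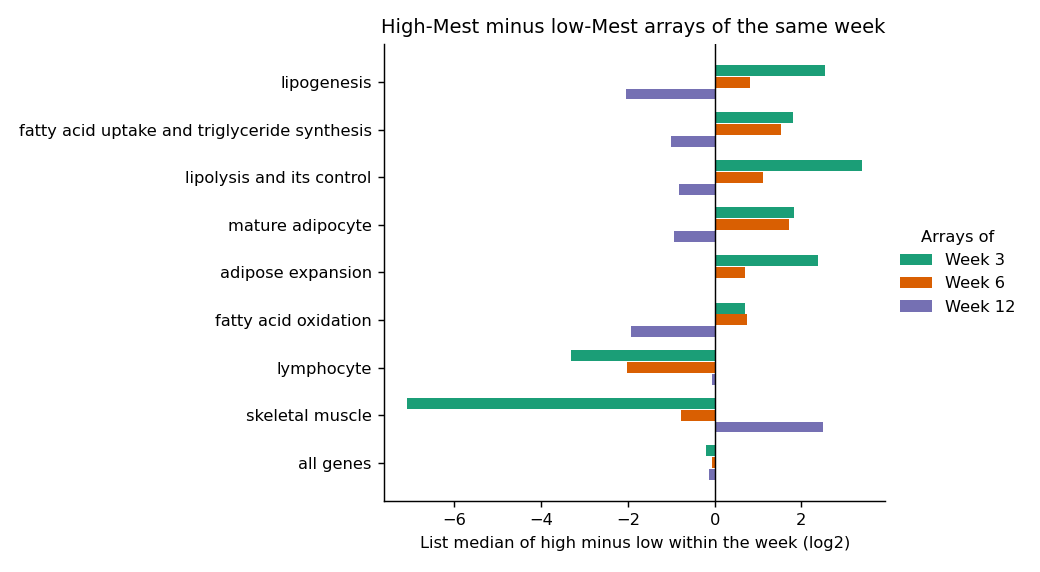
Median difference of each list between the high-Mest and low-Mest arrays of the same week (x axis, log2), with 1 bar for each of Week 3, Week 6 and Week 12. Lipogenesis has 2.55, 0.82 and −2.04, so the direction at Week 12 is opposite to that at Week 3 and Week 6.

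Klf14, Bmp3 and Apln were among the genes that kept their direction in all 3 weeks, and how many of all genes did so was not counted. Klf14 was higher by 4.85, 2.08 and 1.04, and Bmp3 by 3.74, 0.70 and 1.00, but Klf14 was well above background on only 3 low arrays and over all 20 arrays both turned with normexp correction (−0.76 and −0.25). Apln differed by 0.27, 1.63 and 0.99. Lep differed by 5.58 in Week 3 and 4.08 in Week 6 but by 0.05 in Week 12, which is no difference beside its SDs of 1.62 and 1.84 on the sides. Acvr1c differed by 5.34, 5.19 and −1.04, with the sign of Week 12 turned as in the mature adipocyte list. Nnat differed by 5.59, 3.32 and −0.18, so its difference in Week 12 was small, as for Lep. Since HF5 and HF20 of Week 12 may be exchanged, the lists were also taken without that pair. The mature adipocyte list then had 8 of 15 at least 1 higher (median 1.29), the adipose expansion list 4 of 9 (median 0.91) and the lymphocyte list 11 of 15 at least 1 lower (median −1.38).

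Few genes separated the sides nearly completely. Genes for which at least 9 of 10 high arrays lay on the one side of the median of all 39 arrays and at least 9 of 10 low arrays on the other numbered 4 in the higher and 8 in the lower direction. The higher ones were Apln, Fam83d, LOC100044874 and Gm3833. Apln, the gene for the adipokine apelin, ran from −0.61 through 1.52 to 2.65 on the high side and from −1.30 through −0.56 to 0.06 on the low side, a difference of 1.84. The single high array within the low range was HFC Week 3, the array with the most Mest. LOC100044874, described as similar to an MHC class I antigen, ran from 2.92 through 3.51 to 4.38 against −0.81 through 2.58 to 2.80, a difference of 1.45. Fam83d, a protein of the mitotic spindle, differed by 1.53 (−0.57 with normexp correction) and Gm3833, a predicted gene similar to a meiosis factor, by 0.79.

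Of the 8 genes in the lower direction, LOC100047628, EG434025 and ENSMUST00000103527 are given above. ENSMUST00000103551, another antibody heavy chain segment, and the predicted gene LOC640701 were each well above background on 1 high array and on 6 and 8 low arrays, so no size is given for them. The ribosomal protein gene Rps3a ran from 5.08 through 5.50 to 5.86 on the high side and from 5.28 through 6.23 to 7.0 on the low side, a difference of −0.74 with saturated spots on 1 high and 2 low arrays, and the predicted gene Gm7547 differed by −0.52 with 1 and 1. Zfp831, a zinc finger gene, was well above background on 0 high and 6 low arrays, and has no size given either. Rps3a and Gm7547 differed little in size, but their spread within a side was small (SDs of 0.25 and 0.46 for Rps3a).

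Over all 39 arrays, the genes whose levels ran most closely with Mest by Spearman rho were Ahcyl2 (0.70), Krt79 (0.68), Lep (0.67), Hoxc8 (0.67), D430019H16Rik (0.66), Ywhab (0.66), Klf14 (0.66), Aco1 (0.64), Tusc5 (0.64) and Ehd2 (0.63). These arrays share scaling, diets and time points, and the lowest and the highest percentile of rho over all genes began at −0.53 and 0.51. Krt79, a keratin gene, ran from −2.81 through −1.16 to 0.19 on the high side and from −6.02 through −4.47 to −0.83 on the low side, a difference of 2.55. Tusc5, a membrane protein of fat cells that aids the glucose transporter, differed by 1.89 and the cytosolic aconitase Aco1 by 1.04. Ahcyl2, related to the enzyme that breaks down adenosylhomocysteine, differed by 1.28, the adapter protein gene Ywhab by 1.21 and the non-coding RNA D430019H16Rik by 2.40. Hoxc8, a position gene of the Hox family, differed by 1.33, with 10 high and 3 low arrays well above background and a difference of −0.93 with normexp correction. With the time point means removed from both genes, rho was 0.63 for Lep, 0.74 for D430019H16Rik, 0.46 for Ahcyl2 and 0.63 for Klf14.

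The 19 arrays in neither side allow a test that the sides did not use, namely whether genes moved with Mest among them. On these arrays Mest ran from 0.70 to 2.20. With limma, the slope on Mest passed an adjusted p of 0.05 for 0 of 19030 genes, while 5056 had an unadjusted p under 0.05 (2599 or 13.7% with a positive and 2457 or 12.9% with a negative slope). With the time point as a block the adjusted count was again 0 and the unadjusted count 272. Leaving out LFC Week 0 gave 1285 genes at the adjusted threshold and leaving out HF5 Week 9 gave 1063, so single arrays decide this count. The 3 genes with the smallest p were Nat11 (slope 1.52 per 1 of Mest, SE 0.29), Kctd3 (1.57, SE 0.30) and Ak3, a mitochondrial adenylate kinase (1.00, SE 0.19), each with limma adjusted p = 0.0854.

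Genes that differed between the sides mostly had slopes of the same sign on the other 19 arrays. Of the 462 higher genes 414 were tested, and 318 (76.8%) had a positive slope, against 48.3% of all genes tested. Of the 1326 lower genes 964 were tested, and 188 (19.5%) had a positive slope. At an unadjusted p under 0.05, 116 (28%) of the former had a positive slope and 302 (31.3%) of the latter a negative one, against the 13.7% and 12.9% of all genes. With the time point as a block, 60.1% of the former and 41.5% of the latter had a positive slope, against 48% of all genes, and 14 (3.38%) and 13 (1.35%) had an unadjusted p under 0.05 in the direction of the sides, against 0.73% and 0.699%. Genes are not independent of each other, and the 19 arrays share scaling, diets and time points with the sides. The shared signs are therefore a description, and none of the genes passed the adjusted threshold.

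**Figure D5:**
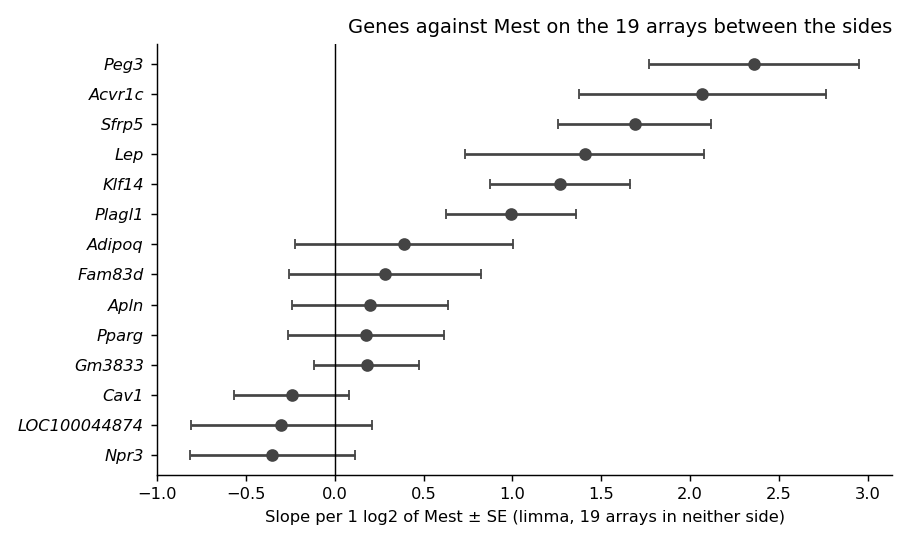
Slope of 14 named genes on Mest over the 19 arrays in neither side (x axis, log2 per 1 log2 of Mest), with points for the limma estimate and bars for its SE. Peg3 (2.36), Acvr1c (2.07) and Sfrp5 (1.69, but −0.49 with normexp correction) have the largest slopes, while Apln (0.20) and LOC100044874 (−0.30), which separated the sides, lie within 1 SE of 0.

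Of the 14 genes in the plot of slopes, the largest slopes were those of Peg3, Acvr1c and Sfrp5. The slope was 2.36 (SE 0.59, limma adjusted p = 0.085) for Peg3, 2.07 (SE 0.70, limma adjusted p = 0.095) for Acvr1c (1.21 without HFC Day 6) and 1.69 (SE 0.43, limma adjusted p = 0.085) for Sfrp5. Klf14 had 1.27 (SE 0.39, limma adjusted p = 0.088), Lep 1.41 (SE 0.67, limma adjusted p = 0.187, and 0.93 without HFC Day 10) and Plagl1 0.99 (SE 0.36, limma adjusted p = 0.11). Klf14, Lep and others named by their rho over 39 arrays are not independent of these 19, which entered that rho. The slope of Sfrp5 was −0.49 and that of Klf14 −0.51 with normexp correction. Apln (0.20, SE 0.44), Fam83d (0.28, SE 0.54), LOC100044874 (−0.30, SE 0.51) and Gm3833 (0.18, SE 0.30), the genes that best separated the sides, had slopes smaller than their SE. So had Pparg (0.18, SE 0.44), Adipoq (0.39, SE 0.61), Cav1 (−0.24, SE 0.32) and Npr3 (−0.35, SE 0.46). Spots of Adipoq and Cav1 were saturated on arrays of both sides, as given above. Their saturation on the 19 arrays is not given here, so the size of both slopes is not read.

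Lists differed in how their slopes compared with the sides. Unadjusted p under 0.05 with a positive slope was reached by 8 of 15 mature adipocyte genes, 7 of 19 of fatty acid uptake and triglyceride synthesis, 6 of 15 of lipolysis and 10 of 24 imprinted genes, with 0, 1, 1 and 1 in the other direction, against 13.7% positive and 12.9% negative over all genes. Adipose expansion (2 of 9) and lipogenesis (3 of 17) were near that share of positive slopes, as were adipogenic transcription factors with 2 of 18, which had 7 negative (median slope −0.20). Fatty acid oxidation (16 of 19), oxidative phosphorylation (20 of 25), thermogenic genes (8 of 14, median slope 1.93) and muscle (9 of 15, median slope 2.64) also had many positive slopes here, while their differences between the sides were near 0 or negative. All 15 immediate early genes had a negative slope at an unadjusted p under 0.05 (median −2.73), and so did 6 of 11 endothelial and 6 of 23 macrophage genes. Among the 19 arrays, HFC Day 1, Day 6 and Day 10 had immediate early means of −0.18, −0.29 and −0.29, and all others at least 4.56. Their muscle means were 6.22, 5.04 and 3.27, against at most 2.34 on the others, and their Mest levels 1.86, 2.20 and 1.82. The part of these early HFC arrays in the list slopes was not tested. Lymphocyte genes had 0 of 15 in either direction, with a median slope of −1.30. These counts rest on a fit that does not take shared time points into account. With the time point as a block, the count of positive slopes at an unadjusted p under 0.05 was 0 for mature adipocyte, fatty acid uptake and triglyceride synthesis, lipolysis, lipogenesis, fatty acid oxidation, oxidative phosphorylation, thermogenic and muscle genes, 1 of 24 for imprinted genes and 2 of 9 for adipose expansion, against 0.73% of all genes. The median slope was then 0.31 for mature adipocyte, 0.25 for lipolysis, 0.43 for adipose expansion, −0.02 for fatty acid uptake and triglyceride synthesis and −0.56 for lipogenesis. It was −0.04 for immediate early genes, of which 0 of 15 had a negative slope at that p. The part of muscle and handling genes in the slopes of the fat cell genes was not tested.

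The labelled diets give comparisons that do not use Mest. HFC was set against LFC over 10 time points, and the 3 KAL-1 diets together against HFC over Week 3 to Week 18. Both use the HFC arrays of those weeks. With limma 0 of 19873 genes passed the adjusted threshold for HFC against LFC (1165 at an unadjusted p under 0.05, of which 390 or 1.96% were higher and 775 or 3.9% lower) and 0 of 21087 for KAL-1 against HFC (945, of which 536 or 2.54% were higher and 409 or 1.94% lower). The smallest p belonged to the potassium channel subunit gene Kcne1l (1.40), the annexin gene Anxa8 (1.68) and Gm6418 (−1.10) for HFC against LFC, each with limma adjusted p = 0.803. For KAL-1 against HFC it belonged to Pla2g2e, a secreted phospholipase (−1.50), C6, a complement component (−1.33), and Hmmr, a hyaluronan receptor of dividing cells (−1.13, but 0.61 with normexp correction), each with limma adjusted p = 1.

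For the genes that went with Mest, the values of both comparisons stand side by side, none of them past the adjusted threshold. Lep was 1.93 (SE 0.79) higher with HFC than LFC, in 7 of 10 time points, and differed by −1.56 (SE 0.71) with KAL-1 against HFC, where the KAL-1 mean was above HFC in 2 of 6 weeks. Nnat had 2.29 (SE 0.76, higher in 7 of 10) and −1.38 (SE 0.70, above HFC in 3 of 6). Plagl1 had 1.29 (SE 0.41, higher in 9 of 10) and −1.08 (SE 0.37, above HFC in 0 of 6). Krt79 had 1.25 (SE 0.44, higher in 9 of 10) and −1.18 (SE 0.54, above HFC in 3 of 6), and Apln had 0.77 (SE 0.36, higher in 8 of 10) and −0.98 (SE 0.38, above HFC in 1 of 6). For each of the 5 genes the limma adjusted p was 0.803 for HFC against LFC. All but Lep were followed after their values were seen, on sides that were mostly HFC, and both comparisons share HFC arrays, so the opposite signs are a description only. Without Week 3 the KAL-1 difference was −0.79 for Lep, −0.54 for Nnat and −0.54 for Krt79. Without Week 9 it was −0.43 for Apln, whose HFC difference was then 0.46.

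By list the diets shared some directions with the Mest sides and not others. At an unadjusted p under 0.05, where 1.96% of all genes were higher and 3.9% lower, HFC against LFC had 7 of 23 macrophage genes higher and 0 lower (median 0.69) and 0 of 18 lipogenesis genes higher and 2 lower (median −0.46), where the high-Mest arrays had a median of 0.28 in the former and a median of 0.75 in the latter. The mature adipocyte list had 1 higher and 1 lower of 15 (median 0.41), too few to read against those shares, and the adipose expansion list 2 higher and 1 lower of 9 (median 0.43). The medians of fatty acid uptake and triglyceride synthesis (0.44), lipolysis (0.47), lymphocyte (−0.92) and muscle genes (−0.68) had the sign of those of the sides. For KAL-1 against HFC, where 2.54% of all genes were higher and 1.94% lower, 0 of 9 adipose expansion genes were higher and 3 lower (median −0.57), 5 of 15 muscle genes were higher and 0 lower (median 2.23), and 0 of 24 macrophage genes were higher and 5 lower (median −0.65). The difference between the Mest sides and the diets was not tested.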

How the data were processed

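Total RNA of mouse subcutaneous adipose tissue was labelled with Cy3 and hybridised to 39 Agilent 1-colour arrays. Per the file headers, the deposited array files hold spot intensity values from Agilent Feature Extraction 10.5.1.1 (the labels name 9.1), background-subtracted and not normalized between arrays. The authors also deposited a table of log2 ratios, taken against LFC at the same time point, which served only as an alternative.

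The log2 of each processed intensity minus the log2 of the 75th percentile of the array was taken, outlier spots were dropped and the brightest probe of a gene was used. A gene passed when well above background on at least 10 arrays. The members, gene lists and naming rule were chosen with earlier results of these data known. Genes named were those meeting the 9 of 10 rule (up to 12 a direction), the 10 highest and 5 lowest rho, the 3 smallest p of each fit, the 4 members of a list with the largest difference, and a set of 15 always named, of which the text gives a selection. Plagl1, Krt79, Nnat and Apln were followed into the diet comparisons after their values were seen.

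Slopes and diets were tested with limma (version 3.58.1, R 4.3.3), two-sided, with Benjamini-Hochberg adjustment at 0.05, the diets with the time point as a block, which is the pairing the labels give. On simulated data over 18553 genes, the slope fit recovered 7.5% of genes changed by 1, 69.5% by 2 and 92.5% by 3, and over 19610 genes the fit of HFC against LFC recovered 0%, 74% and 90.5%. In the simulation the values of each gene were shuffled over arrays on their own. This removed the correlation between genes and the pairing by time point, so the shares need not hold for the fits to the data. The number of arrays limits precision.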

Additional observations from a re-analysis of the deposited data

Results flagged for a closer look

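Arrays far from the rest of their group (4 to 10 arrays) were sought with Dixon's ratio at the 95% level, and by chance about 1 group in 20 would hold one. Of 36 groups tested, 7 held such an array. The HF75 array of Week 3 stood apart from the other HF75 arrays in Mest (−0.69, next 0.75). It also stood apart on the low side in the mean level of the skeletal muscle list (7.47, next 0.90) and of the adipogenic transcription factors (0.31, next 1.15).

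On the low side LFC Week 3 stood apart in the lymphocyte list (1.93, next −1.53) and LFC Week 18 in the liver list (1.06, next −1.72). On the high side LFC Day 6 stood apart in the adipogenic transcription factors (0.93, next 1.58) and in the immediate early genes (−0.31, next 4.26).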

How the results depend on the processing

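Counts of genes between the sides depended on the background correction, the filter and the number of arrays, while 865 of 892 values of single named genes held, 20 moved by more than the spread and 7 reversed. Genes with sides that did not overlap numbered 11 higher and 48 lower with normexp correction, 25 and 27 with 8 arrays a side, 0 higher with 13 a side, 3 higher over all probes, and 2 higher without HF20 Week 15. Lower genes with no overlap numbered 10 over Week 3 to Week 18 alone. Genes at least 1 lower numbered 6639 with normexp, 2552 with no filter and 2238 over Week 3 to Week 18. Higher and lower genes numbered 855 and 736 with quantile normalization, 938 and 2207 with 8 arrays a side, 205 and 197 well above background on every array, and 182 and 344 with time point means removed, where 0 did not overlap. The Mest difference was 2.05 with time point means removed and 1.99 in the deposited ratios (2.74 with the HF5 and HF20 columns of Week 12 exchanged). The settings without HF20 Week 15, over late time points, without the 8 lymphocyte-rich arrays and without the Week 12 pair were chosen after seeing the data.

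Differences that reversed with normexp were Bmp3 (−0.25), Klf14 (−0.76), Peg3 (−0.25), Fam83d (−0.57), Hoxc8 (−0.93) and Cdc2a (−0.13), and Ccna2 reversed with time point means removed (−0.052). Slopes that reversed with normexp were Npr3 (0.057), Sfrp5 (−0.49), Klf14 (−0.51), Fam83d (−0.73), LOC100044874 (0.13) and Cav1 (0.45), with quantile normalization Cav1 (0.044), and with diet as a covariate Npr3 (0.19) and LOC100044874 (0.19). With the time point as a replicate block, slopes reversed for Fam83d (−0.49), Gm3833 (−0.19) and Pparg (−0.065), and the count stayed at 0 (272 unadjusted). With 1 array left out, the slope ran from −0.57 to 0.083 for Npr3 and from −0.55 to 0.19 for LOC100044874 (both highest without HFC Day 1), from −0.042 (without HFC Day 6) to 0.60 for Pparg, from −0.0054 (without LFC Week 9) to 0.72 for Fam83d and from −0.082 (without LFC Week 15) to 0.86 for Adipoq. The slope count was 1184 with normexp and 0 to 1285 with 1 array left out. Kcne1l for HFC against LFC (−0.062) and Hmmr for KAL-1 against HFC (0.61) reversed with normexp. The causes were not tested.

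The diet counts were 0 under every alternative run, with 468 and 518 unadjusted without the pairing by time point (no replicate block). The unadjusted count for HFC against LFC (1165) was also 3372 with normexp, 2980 with scan day as the block, 655 well above background on every array, and 748 (without Day 10) to 2516 (without Week 12) with 1 time point left out, with 771 without Week 9. For KAL-1 against HFC (945) it was 4785 with normexp, 1420 with scan day, 515 well above background on every array, and 490 (without Week 3) to 1840 (without Week 18), with 623 without Week 15 and 1610 without Week 12. The other Mest probe was not run because the array holds 1, and the slide as a random block could not be fitted for HFC against LFC. Differences of dim genes are limited by signal over background.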
